A study of Homo sapiens with 21 samples.

Results

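The 10 genes described here are receptors, ligands, the DNA-binding partner and target genes of the Notch pathway: NOTCH1, NOTCH2, NOTCH3, JAG1, JAG2, DLL1, RBPJ, HES1, HES4 and HEY1. They were picked by name from the 23368 features of an mRNA count table, and all 10 are in it. The cells are HK-2, a line derived from human proximal tubule and immortalised with oncogenes of human papillomavirus, grown in serum-free keratinocyte medium with epidermal growth factor and bovine pituitary extract. One arm received cyclosporine A, a calcineurin inhibitor used to prevent transplant rejection, at 5 µg/mL, and the other received the vehicle, ethanol at 0.1%. Exposure lasted 48 h for mRNA and miRNA sequencing, with 4 cyclosporine A and 4 vehicle libraries of each kind. For PAR-CLIP, which sequences RNA crosslinked to a protein, exposure lasted 24 h, all cells also carried 4-thiouridine at 100 µM, and AGO2, the Argonaute protein that carries miRNAs, was precipitated from 2 cyclosporine A and 2 vehicle samples. A further PAR-CLIP sample used an antibody to all Argonaute proteins, and its labels give no treatment. Whether each library had its own culture is not stated in the labels, and the p-values therefore cover only library-to-library spread, which may be purely technical.

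Notch receptors are cut by proteases when a Jagged or Delta ligand on a neighbouring cell binds them, and the freed intracellular domain enters the nucleus. There it joins the DNA-binding protein RBPJ and the co-activator Mastermind, and genes of the HES and HEY families, which encode transcriptional repressors, are switched on. In the kidney the pathway is known for proximal segment formation during development and for its reactivation in injured tubules. The genes divide by role into 3 receptors, 3 ligands, RBPJ, and 3 repressors.

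With cyclosporine A, 6 members rose and 2 fell among the 8 that reached the minimum level for the test in every library (edgeR quasi-likelihood test, adjusted p under 0.05). HEY1 reached it mainly in the cyclosporine A libraries and is described apart, and DLL1 was not tested. Of all 12855 genes tested, 66.9% passed, 33.3% of the tested genes being higher and 33.5% lower with cyclosporine A, so a pass in either direction was common in this table. The median size of change, without its sign, was 0.55 (log2) over the 8 members and 0.38 over all tested genes. HES1 stood far above the other members with a 13.1-fold rise, and 99.8% of the tested genes changed by less. Among the receptors NOTCH3 fell while NOTCH1 and NOTCH2 rose. Among the ligands JAG2 rose and JAG1 fell, although the JAG1 call was lost in DESeq2 (adjusted p = 0.0618) and when either of 2 libraries was left out. The groups did not overlap for 7 of the 8 members, 6 of them higher and 1 lower; of all tested genes 57.9% did not overlap, 29.0% higher and 28.9% lower.

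Levels are given as CPM, a library's reads of a gene scaled to a common library total after TMM normalization, and no length correction was available, so levels are compared between groups and never between genes. Total mRNA counts per library were 3965431 to 5001669 with cyclosporine A and 4289120 to 7041604 with vehicle. In RNA of whole cultures, a smaller share of cells with a transcript and less of it per cell cannot be told apart. Of the 14 listed proximal tubule markers 6 were tested, with a summed level of 1397 to 1459 CPM in cyclosporine A libraries and 1689 to 1785 CPM in vehicle libraries; the transporters SLC22A6 and SLC22A8 and the regulator HNF4A were at 0 in all libraries. The 6 endothelial markers summed to 0.920 to 1.53 CPM with cyclosporine A and 0.423 to 1.36 CPM with vehicle, with PECAM1 and KDR at 0.

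**Figure D1:**
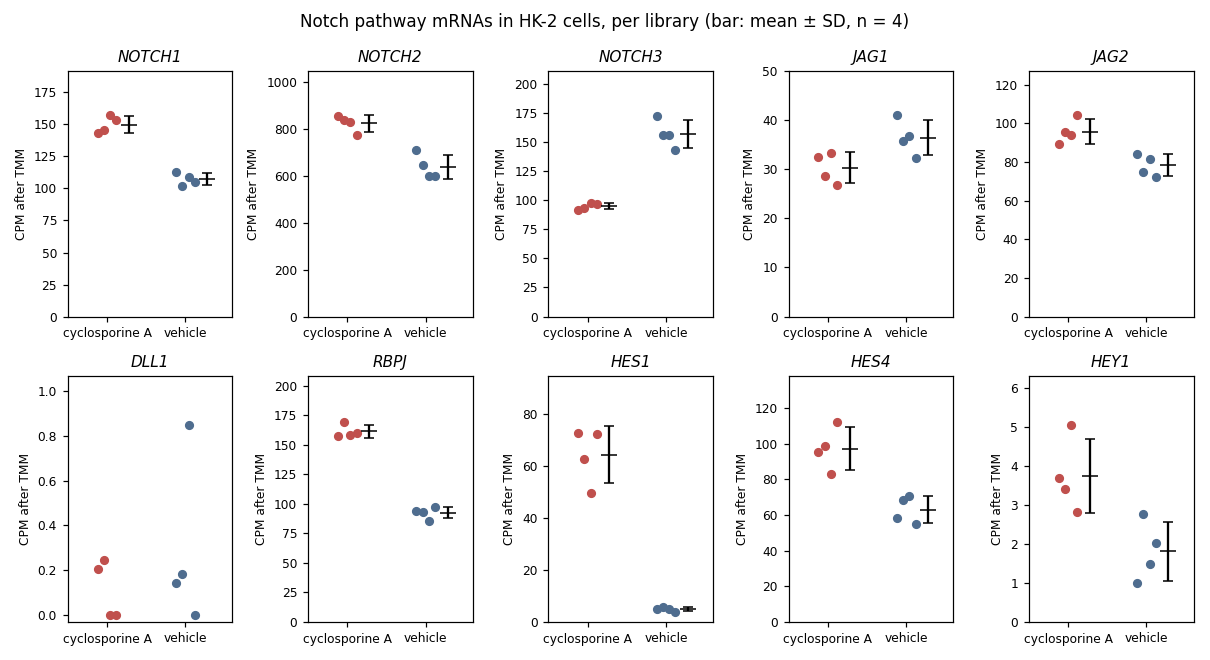
Level of each of the 10 genes (CPM after TMM, linear axis) in the 4 cyclosporine A libraries and the 4 vehicle libraries; points are libraries and black bars are the mean ± SD, left out for DLL1, which had at most 4 reads in a library. HES1 lay between 49.5 and 72.6 CPM with cyclosporine A and between 3.84 and 5.71 CPM with vehicle, NOTCH3 was lower in every cyclosporine A library, and only JAG1 and DLL1 show overlapping groups.

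Among the receptors, NOTCH1 had 143, 145, 157 and 154 CPM in cyclosporine A libraries, against 113, 102, 109 and 105 CPM in vehicle libraries. Every cyclosporine A library lay above every vehicle library. NOTCH1 rose by 0.48 ± 0.06 (log2 fold change ± SE, n = 4 each; edgeR adjusted p = 1.45e-09), a 1.39-fold change.

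NOTCH2, the receptor known for its part in proximal segment formation, had 853, 836, 830 and 771 CPM with cyclosporine A, against 708, 643, 599 and 598 CPM with vehicle. The groups did not overlap, although cyclosporine A replicate 4 and vehicle replicate 1 lay closest to each other. NOTCH2 averaged 823 ± 35.8 CPM with cyclosporine A and 637 ± 51.7 CPM with vehicle (SD, n = 4 each), a rise of 0.37 ± 0.06 (log2; edgeR adjusted p = 1.97e-07). A near-identical partial copy, NOTCH2NL, is counted as a separate feature, averaged 27.6 ± 2.86 CPM with cyclosporine A and 14.2 ± 0.911 CPM with vehicle, and rose by 0.96 ± 0.11 (log2; edgeR adjusted p = 9.92e-11). The sources used here do not give how the authors' counting split reads between the 2 copies, and both values are uncertain to that extent.

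NOTCH3, a receptor best known in vascular smooth muscle and pericytes, ran the other way. It had 91.7, 93.3, 97.3 and 96.7 CPM with cyclosporine A, against 172, 156, 156 and 143 CPM with vehicle. The groups were well apart, at 94.8 ± 2.67 CPM with cyclosporine A and 157 ± 11.6 CPM with vehicle (SD, n = 4 each), and the vehicle libraries spread more. NOTCH3 fell by 0.73 ± 0.06 on the log2 scale (edgeR adjusted p = 6.17e-15), to 0.602 of its vehicle level.

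The summed level of stromal and smooth muscle markers was lower in the same libraries as NOTCH3. Their 6 genes summed to 110 to 129 CPM with cyclosporine A and to 362 to 407 CPM with vehicle; 4 were tested and 3 of them fell, with log2 changes of −2.06 ± 0.07 for the proteoglycan LUM, −1.52 ± 0.17 for the collagen gene COL1A1 and −0.98 ± 0.08 for the proteoglycan DCN (edgeR adjusted p = 7.2e-34, 3.49e-11 and 7.35e-17). LUM, the largest part of the sum, averaged 63.1 CPM with cyclosporine A and 264 CPM with vehicle, and DCN 48.6 and 96.1 CPM. The smooth muscle gene MYH11 did not pass, at −0.64 ± 0.34 (log2; edgeR adjusted p = 0.0944). The pericyte receptor PDGFRB and the smooth muscle actin ACTA2 had at most 50 counts over all 8 libraries. The 6 epithelial markers summed to 860 to 963 CPM with cyclosporine A and 735 to 804 CPM with vehicle. Of these 6 markers, 3 rose and 2 fell. Whether stromal or smooth muscle cells were present, and any part of them in the NOTCH3 result, was not tested.

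The balance between receptors was also read as a ratio of raw counts within each library, which no scaling between libraries can alter. Per 100 NOTCH2 reads there were 10.8 to 12.5 NOTCH3 reads with cyclosporine A and 24.0 to 26.0 with vehicle. The mean was 11.5 ± 0.773 with cyclosporine A and 24.6 ± 0.912 with vehicle (SD, n = 4 each). NOTCH1 kept closer to NOTCH2: 18.3 ± 1.45 NOTCH1 reads per 100 NOTCH2 reads with cyclosporine A and 16.9 ± 1.19 with vehicle, with overlapping groups. These ratios follow from the changes already given and are no separate evidence.

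The Jagged ligands also parted. JAG2 had 89.3, 95.3, 93.9 and 104 CPM with cyclosporine A, against 84.3, 74.9, 81.5 and 72.0 CPM with vehicle. All 4 cyclosporine A libraries were above all 4 vehicle libraries. JAG2 averaged 95.7 ± 6.31 CPM with cyclosporine A and 78.2 ± 5.68 CPM with vehicle (SD, n = 4 each) and rose by 0.28 ± 0.07 (log2; edgeR adjusted p = 0.000349).

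JAG1, the Jagged ligand known to be induced in injured tubules, had 32.5, 28.6, 33.4 and 26.8 CPM with cyclosporine A, against 41.0, 35.7, 36.8 and 32.3 CPM with vehicle. The groups overlapped, since vehicle replicate 4 lay below cyclosporine A replicates 1 and 3. JAG1 fell by 0.27 ± 0.10 (log2; edgeR adjusted p = 0.0104), and the call was lost without vehicle replicate 1 (log2 change −0.20, adjusted p = 0.0797), without cyclosporine A replicate 4 (−0.22, 0.0557) and in DESeq2 (−0.26, 0.0618). In the authors' deposited table JAG1 likewise has an adjusted p of 0.0592. Within libraries there were 25.7 to 36.4 JAG1 reads per 100 JAG2 reads with cyclosporine A and 44.8 to 48.7 with vehicle, ranges that did not overlap. The rise of JAG2 lowers this ratio too, so the ratio is no separate evidence for a fall of JAG1.

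DLL1, a Delta ligand, had almost no reads. It had 1, 1, 0 and 0 reads with cyclosporine A and 1, 1, 4 and 0 reads with vehicle, too few for the test. No difference was detectable at this depth.

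**Figure D2:**
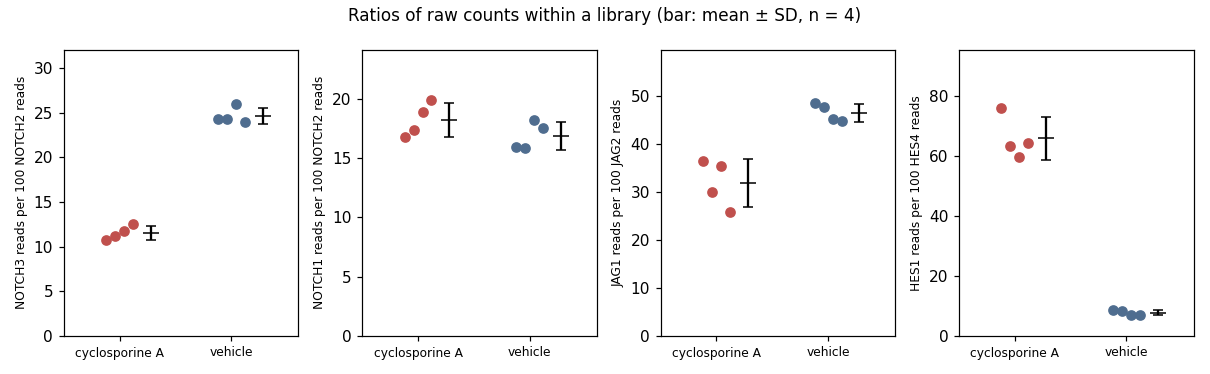
Raw reads of a member per 100 raw reads of a second member in the same library, in 4 cyclosporine A and 4 vehicle libraries; points are libraries and black bars the mean ± SD. NOTCH3 per 100 NOTCH2 reads was 10.8 to 12.5 with cyclosporine A and 24.0 to 26.0 with vehicle, whereas NOTCH1 per 100 NOTCH2 reads overlapped between the groups.

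RBPJ, the DNA-binding protein through which all Notch receptors act, had 157, 169, 158 and 160 CPM with cyclosporine A, against 93.8, 92.9, 85.7 and 97.5 CPM with vehicle. Its groups were far apart and its spread within a group small, with SDs of 5.49 CPM with cyclosporine A and 4.93 CPM with vehicle. RBPJ rose by 0.80 ± 0.06 (log2; edgeR adjusted p = 6.94e-17), a 1.74-fold change.

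HES1, the repressor that Notch signalling induces in most tissues, showed the largest change of the members. It had 353, 256, 215 and 283 reads with cyclosporine A and 35, 31, 23 and 17 reads with vehicle. In CPM these were 72.6, 62.5, 49.5 and 72.4 with cyclosporine A, against 4.97, 5.71, 4.87 and 3.84 with vehicle. The lowest cyclosporine A library, replicate 3, was still far above the highest vehicle library. HES1 rose by 3.71 ± 0.13 (log2; 95% interval 3.45 to 3.97; edgeR adjusted p = 4.61e-32), the rise ranked 7 from the top among 12855 tested genes.

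HES4, a related repressor that humans have and mice lack, had 95.2, 98.7, 82.8 and 112 CPM with cyclosporine A, against 58.6, 68.5, 70.5 and 54.9 CPM with vehicle. Its groups did not overlap, and cyclosporine A replicate 3 was again the lowest of its group. HES4 rose by 0.62 ± 0.08 (log2; edgeR adjusted p = 6.61e-10), a 1.54-fold change. Per 100 HES4 reads there were 59.7 to 76.2 HES1 reads with cyclosporine A and 6.91 to 8.48 with vehicle.

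HEY1, a repressor known as a Notch target in vessels and heart, was scarce. It had 18, 14, 22 and 11 reads with cyclosporine A and 7, 15, 7 and 9 reads with vehicle, or 3.70, 3.42, 5.06 and 2.81 CPM with cyclosporine A against 0.993, 2.76, 1.48 and 2.03 CPM with vehicle. The highest vehicle library almost reached the lowest cyclosporine A library. HEY1 rose by 1.09 ± 0.30 (log2; 95% interval 0.50 to 1.68; edgeR adjusted p = 0.00121). It entered the fit because all 4 cyclosporine A libraries, but only 1 vehicle library, reached the minimum of 2.21 CPM needed in 4 libraries. The filter thus favoured a rise, and HEY1 is left out of the counts of members.

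**Figure D3:**
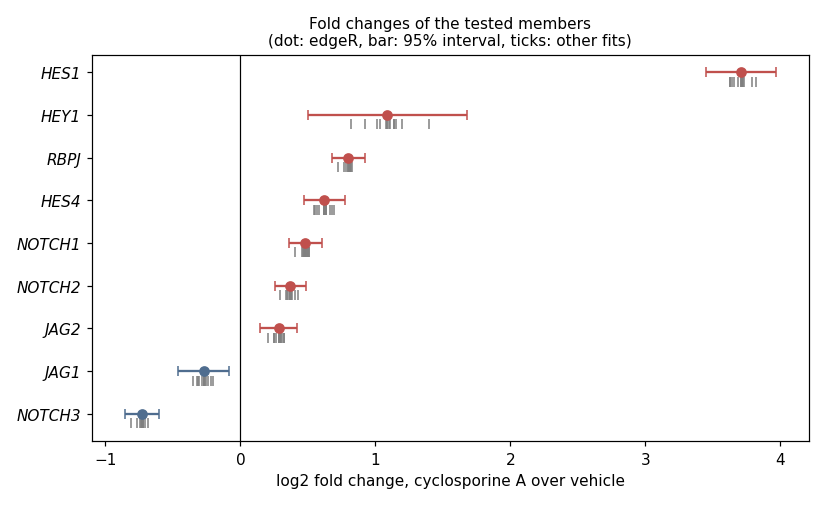
Log2 fold change, cyclosporine A over vehicle, of the 9 tested members; dots are the edgeR estimates, bars their 95% intervals, and grey ticks the estimates under 14 other fits and left-out libraries. HES1 lies at 3.71, NOTCH3 at −0.73 and JAG1 at −0.27, and no tick crosses 0.

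The genes whose profile over the 8 libraries lay nearest to that of HES1 (Euclidean distance of mean-centred log2 CPM) were GADD45A at 0.667, PDK4 at 0.737 and PLIN2 at 0.763. GADD45A is a growth arrest and stress gene, PDK4 a kinase that inhibits pyruvate dehydrogenase, and PLIN2 a lipid droplet coat protein. They rose by 3.43 ± 0.10, 3.58 ± 0.14 and 3.72 ± 0.07 (log2). Nearest to NOTCH3 were DIDO1 at 0.116, TAPBP, the tapasin of antigen loading, at 0.118, and KIRREL, a nephrin-family adhesion protein, at 0.125, which fell, with changes of −0.68, −0.77 and −0.71 (log2). The distances are descriptions, and a large group difference shared by 2 genes is enough to make them small.

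Letters of the RBPJ core motif TGGGAA were looked for near the start of the members, since HES1 and HES4 rose with RBPJ. The windows run from 250 bases before to 50 bases after each annotated start (RefSeq, GRCh38.p14), 8 of the 10 members matched the table, and both strands were searched. The 30-base stretches shown carry the matches in capitals, 5′ to 3′ on the gene's strand.
HES1, chr3:194136059-194136088 (+): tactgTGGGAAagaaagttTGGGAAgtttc
HES4, chr1:1000149-1000178 (−): gagtgTGGGAAagaatgcggagccgggttc
The HES1 stretch holds 2 copies, whose first bases lie 84 and 70 bases before the start, and HES4 holds 1, at 76 bases before it. At least 1 match occurs in 24.0% of 35116 windows and 2 or more in 3.80%. RBPJ has 5 annotated starts, and 1 of its windows holds 2 matches, while the NOTCH1, NOTCH2, NOTCH3, JAG1 and JAG2 windows hold none of these letters.

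Sites that HES and HEY repressors are known to bind were searched too. HES1, known to repress its own promoter, has 4 matches to the N box CACNAG and 4 to the class C site CACGNG, and 2 of the positions match both motifs. At least 1 N box occurs in 38.0% of all windows and 2 or more in 8.94%. For the class C site these shares are 30.5% and 12.6%. A class C site that reads the same on both strands counts as 2 matches, so the 12.6% includes windows with 1 such site. The HES4 window holds neither. NOTCH2 and NOTCH3 each hold 1 position that matches both motifs. NOTCH1 has 2 N boxes and no class C site, JAG1 has 1 class C site and JAG2 has 2, both without an N box. Of the 5 RBPJ windows, 1 has 2 N boxes, and 2 have class C sites, 1 and 2 of them. A match is a match of letters and not a shown binding site.

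Beyond the members, 75 other genes of the pathway were listed by role, and 61 of them were tested. Of these, 21 rose and 19 fell, together 65.6%, beside 66.9% of all tested genes, and their median change was −0.03 (log2) against −0.00 over all tested genes. The listed genes thus passed about as often as any gene. Of the 61, 7 missed the test's minimum in some library of the group where they were lower. The filter favours a difference in such genes. Without them 21 of 54 rose and 13 fell, beside 4145 and 3799 of 11849 over all genes counted the same way.

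Of the 10 other receptors and ligands 5 were tested, 1 rose and 3 fell, with a median of −0.66 (log2). DLL3, a Delta family protein known to hold receptors inside the cell, rose by 0.39 ± 0.08, while the non-canonical ligands MFAP2, CNTN1 and DLK2 fell, with changes of −1.20 ± 0.10, −1.22 ± 0.30 and −0.66 ± 0.11 (log2; edgeR adjusted p at most 0.000348). CNTN1 had only 26 reads over the cyclosporine A and 77 over the vehicle libraries and met the test's minimum in vehicle libraries alone, as did MFNG and NEURL1B, named next, and TLE2 among the cofactors, so that these genes had to differ. The endothelial receptor NOTCH4 had 10 reads over the cyclosporine A libraries and 15 over the vehicle libraries, and the ligand DLL4 had 2 over the cyclosporine A libraries and 5 over the vehicle libraries.

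Of the 14 genes for glycosylation and cleavage 13 were tested, 3 rose and 7 fell, with a median of −0.17 (log2). The Fringe enzymes LFNG and MFNG add sugars to receptors that shift their response from Jagged to Delta ligands. RFNG, another Fringe gene, did not pass, at 0.05 ± 0.08 (log2, edgeR adjusted p = 0.582). LFNG fell by 0.58 ± 0.07, and MFNG, with only 8 reads over the cyclosporine A and 67 over the vehicle libraries, fell by 2.67 ± 0.41 (log2; edgeR adjusted p = 1.2e-09 and 9.25e-08). POGLUT1, which glucosylates receptors, fell by 0.78 ± 0.11 (log2; edgeR adjusted p = 3.23e-08).

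All 16 genes for endocytosis and turnover were tested, 6 rose and 2 fell, with a median of 0.10 (log2). MIB1, the ubiquitin ligase that activates ligands, rose by 0.85 ± 0.07, and AAK1, an endocytic kinase, by 0.64 ± 0.07 (log2; edgeR adjusted p = 1.86e-15 and 5.55e-12). The related ligase genes NEURL and NEURL1B moved apart: NEURL rose by 2.27 ± 0.17, and NEURL1B, with 8 reads over the cyclosporine A libraries and 64 over the vehicle libraries, fell by 2.61 ± 0.42 (log2; edgeR adjusted p = 6.68e-18 and 3.35e-07).

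Of the 22 nuclear cofactors 20 were tested, 9 rose and 5 fell, with a median of 0.15 (log2). The acetyltransferase CREBBP rose by 0.65 ± 0.06, the Groucho-type corepressor TLE3 by 0.90 ± 0.09 and the demethylase KDM5A by 0.56 ± 0.07, while the deacetylase HDAC1 fell by 0.55 ± 0.06 (log2; edgeR adjusted p at most 8.8e-10).

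Of the 13 other HES, HEY and related repressors 7 were tested, 2 rose and 2 fell, with a median of −0.08 (log2). HES6, known to counter HES1, fell by 1.10 ± 0.25 (log2; edgeR adjusted p = 0.000151). It had 44 reads over the cyclosporine A and 119 over the vehicle libraries. It met the test's minimum in 2 cyclosporine A and 4 vehicle libraries, so the filter favoured a fall. BHLHE40 rose by 0.78 ± 0.06 and ID2, an inhibitor of helix-loop-helix factors, by 1.73 ± 0.12, whereas its relative ID1 fell by 2.35 ± 0.14 (log2; edgeR adjusted p at most 6.67e-18). HES3, HES5 and HEY2 had 0 reads in all 8 libraries.

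**Figure D4:**
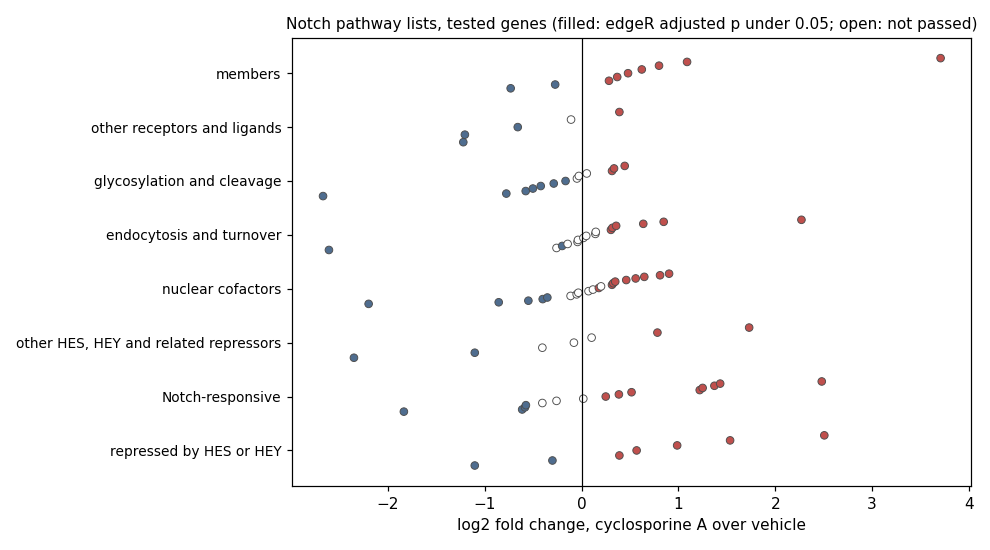
Log2 fold change, cyclosporine A over vehicle, of each tested gene of the members and of the pathway lists, 1 row per list; filled dots passed the edgeR test (red higher, blue lower with cyclosporine A) and open dots did not. Every list has filled dots on both sides of 0, and HES1 at 3.71 is the dot farthest to the right.

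Genes reported to respond to Notch in at least 1 tissue were counted as well. Of 20 listed, 15 were tested, 8 rose and 4 fell, with a median of 0.25 (log2). Of all tested genes 33.3% rose and 33.5% fell. Without the 3 that missed the test's minimum in some library of the group where they were lower, 7 of 12 rose and 3 fell. The transcription factor SNAI2 rose by 2.48 ± 0.15, the cell cycle inhibitor CDKN1A by 1.43 ± 0.07, the signalling inhibitor SPRY2 by 1.37 ± 0.08 and MYC by 1.25 ± 0.06 (log2; edgeR adjusted p at most 6.38e-22). NRARP, an ankyrin-repeat feedback inhibitor and a direct Notch target in many tissues, fell by 0.57 ± 0.11 (log2; edgeR adjusted p = 1.68e-05); it averaged 16.8 ± 2.88 CPM with cyclosporine A and 25.2 ± 0.758 CPM with vehicle (SD, n = 4 each) and was singled out after its values were seen. HES1 and NRARP thus moved in opposite directions. TRIB2, IGF1R and EPHB2 of the same list fell too. Their log2 changes were −1.83 ± 0.21, −0.61 ± 0.07 and −0.58 ± 0.07 (edgeR adjusted p at most 5.44e-11). TRIB2 met the test's minimum in 3 cyclosporine A and 4 vehicle libraries, so the filter favoured its fall.

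Genes reported to be repressed by HES or HEY factors in at least 1 tissue did not all fall where HES1 rose. Of 11 listed, 7 were tested, 5 rose and 2 fell, with a median of 0.57 (log2), where 66.9% of all tested genes passed. The adipogenic receptor gene PPARG rose by 1.53 ± 0.10 and the cell cycle inhibitor gene CDKN1C by 0.99 ± 0.09, while HES6, already named, fell (log2; edgeR adjusted p at most 0.000151). The growth arrest gene GADD45G, at 2.51 ± 0.29 (log2; edgeR adjusted p = 6.1e-11), had 133 reads over the cyclosporine A and 29 over the vehicle libraries; it met the test's minimum in cyclosporine A libraries alone and had to differ. HES6 and DLL3 are also in lists above. Without GADD45G and HES6, which the filter favoured, 5 tested genes remain, of which 4 rose and 1 fell. The 1 that fell was the cell cycle inhibitor gene CDKN1B, with a log2 change of −0.30 ± 0.08 (edgeR adjusted p = 0.000899).

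AGO2 clusters, the stretches of RNA crosslinked to AGO2 in the authors' lists (hg19), were sparse on the members. Outside 1 cluster per list with ribosomal RNA sequence in a NOTCH2 intron, there were 6 on members among 36812 clusters with cyclosporine A, 13 among 56985 with vehicle and 5 among 19306 in the all-Argonaute list. The samples of a treatment are pooled in 1 list, so these counts have no replicates and no test, and lists of unequal length do not show a change. No cluster on a member was in the 3′ UTR class of the authors' annotation, and HES1 and HEY1 had none in any list. HES4 had 1, on the strand opposite the gene at its promoter, in the vehicle list. Of the clusters on members, 4 lay on the gene's strand and 1 opposite with cyclosporine A, against 6 on it and 6 opposite with vehicle; for 1 more in each list the strand could not be told.

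The treatments shared 4 clusters, which is 4 of 6 with cyclosporine A and 4 of 13 with vehicle, where 48.2% and 31.1% of all clusters outside ribosomal RNA were shared. They lay on NOTCH1, JAG1, JAG2 and DLL1. They are shown because they are the stretches of the members seen in both treatments; letters are DNA as the cyclosporine A list gives them, on the gene's strand except for DLL1, where that strand could not be told, and capitals mark a seed site of an abundant miRNA.
NOTCH1, end of the gene, chr9:139388617-139388639 (−): ggtggggctcgtgcctggggtga
JAG1, intron, chr20:10651164-10651185 (−): aACTGAAAcacttaagtagctg
JAG2, exon, chr14:105622306-105622322 (−): gctgctgatcgagcgag
DLL1, intron, chr6:170596724-170596741 (−): agccccgtctggcttgaa
By the authors' score, of unknown unit, the NOTCH1 cluster stood at percentile 89.3 of the cyclosporine A list and 95.2 of the vehicle list, and the JAG2 cluster at 89.8 of the cyclosporine A list and 92.1 of the vehicle list. The JAG1 cluster stood at 57.5 of the cyclosporine A list and 74.1 of the vehicle list, and the DLL1 cluster at 45.2 of the cyclosporine A list and 42.5 of the vehicle list. The NOTCH1, JAG1 and JAG2 clusters were also in the all-Argonaute list. The authors' annotation puts the NOTCH1 cluster in its class TTS (transcription termination site), and whether it lies inside the transcript was not checked. The DLL1 cluster carries that symbol in the authors' annotation, although DLL1 had at most 4 reads in an mRNA library and overlaps FAM120B in RefSeq.

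Seed sites were the complement of positions 2 to 8 of the miRNAs that averaged at least 1000 CPM. The JAG1 intron held one for miR-30a-3p, in both lists. A NOTCH2 intron cluster of the vehicle list, on the strand opposite the gene, held the overlapping sites of miR-27a-3p, miR-27b-3p and miR-128-3p. Across all clusters outside ribosomal RNA, 4.15% held such a site with cyclosporine A and 4.29% with vehicle. The sequences of these miRNAs (RefSeq), with the seed in capitals, show that the first pair share a seed and that the seed of miR-128-3p is shifted by 1 base; miR-34a-5p and miR-449a, known to target NOTCH1, JAG1 or DLL1 elsewhere, share another seed.
NOTCH2 cluster, chr1:120497261-120497277 (+): acactggCACTGTGAca
hsa-miR-27a-3p: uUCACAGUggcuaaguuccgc
hsa-miR-27b-3p: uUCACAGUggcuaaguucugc
hsa-miR-128-3p: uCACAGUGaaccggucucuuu
hsa-miR-30a-3p: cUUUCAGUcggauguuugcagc
hsa-miR-34a-5p: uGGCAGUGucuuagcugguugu
hsa-miR-449a: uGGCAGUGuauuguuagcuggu

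In the miRNA libraries 11.3% of 470 tested miRNAs passed, 4.89% higher and 6.38% lower with cyclosporine A. That share was not firm: 23 rose and 30 fell, but 14 and 15 did so without vehicle replicate 3. Of the miRNAs with a seed site in a cluster annotated to a member, only miR-27a-3p passed. That site lay on the strand opposite NOTCH2, in a cluster at score percentile 29.5 of the vehicle list. miR-27a-3p had 2779, 2674, 3055 and 2916 CPM with cyclosporine A, against 1969, 2159, 2051 and 2502 CPM with vehicle, without overlap. It rose by 0.40 ± 0.11 (log2, edgeR adjusted p = 0.0235). Leaving out vehicle replicate 1 or 3 took the edgeR adjusted p to 0.0530 or 0.0743, past the threshold. Its seed relative miR-27b-3p changed by −0.11 ± 0.11, miR-128-3p by −0.22 ± 0.13 and miR-30a-3p by −0.23 ± 0.11 (log2; edgeR adjusted p = 0.564, 0.285 and 0.197), each with overlapping groups. miR-34a-5p averaged 55.6 ± 14.6 CPM with cyclosporine A and 73.4 ± 29.5 CPM with vehicle (SD, n = 4 each) and did not pass, at −0.40 ± 0.22, nor did miR-449a, at −0.22 ± 0.20 (log2; edgeR adjusted p = 0.274 and 0.532). With same-numbered libraries as a block miR-34a-5p did pass (−0.36, edgeR adjusted p = 0.0340). Without vehicle replicate 2 the change of miR-34a-5p was −0.06 (edgeR adjusted p = 0.879).

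Other miRNAs listed for known links to Notch genes did not pass either. The log2 change was −0.21 ± 0.11 for miR-200b-3p, 0.02 ± 0.14 for miR-200c-3p, −0.11 ± 0.12 for miR-9-5p, −0.06 ± 0.11 for miR-30a-5p and 0.07 ± 0.10 for miR-30c-5p, with overlapping groups each time. For miR-21-5p it was −0.00 ± 0.13, and for miR-146a-5p −0.61 ± 0.23 (edgeR adjusted p = 0.991 and 0.0902). With same-numbered libraries as a block miR-146a-5p did pass (−0.53, edgeR adjusted p = 0.000274). Without vehicle replicate 1, the library highest for miR-146a-5p, its change was −0.20 (edgeR adjusted p = 0.435). miR-199b-5p had at most 2 reads in a library and was not tested. The hairpin genes that lie inside NOTCH1, NOTCH3, JAG1 and JAG2 gave mature miRNAs with at most 3 reads each over all 8 libraries.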

How the data were processed

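Groups and replicate numbers come from the sample titles. Whole-number counts for gene symbols and for mature miRNAs are as the authors deposited them. HTSeq, TopHat, Bowtie, cutadapt, DESeq2 and CASAVA 1.8.2 are named with build hg19 per the submitters' processing notes. Their roles, the strand setting and the annotation were not given in those notes, labels or headers, so reads of overlapping or antisense genes cannot be told apart. From the authors' deposited DESeq2 table (log2 fold change, its standard error as a score, p-value, and mean normalized signal, per the file headers), only the adjusted p of JAG1 is printed. The deposited PAR-CLIP lists hold 1 row per cluster, with its coordinates, annotated gene, letters and the authors' peak score; which caller made them and the score's unit were not given in these sources. Sequences of the all-Argonaute list were not used.

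Both count tables were fitted whole in R 4.3.3 with edgeR 4.0.16 (TMM after filterByExpr, quasi-likelihood test of treatment, Benjamini-Hochberg adjustment, call at 0.05). The SE is the one implied by the F statistic. The filter asks for 2.21 CPM before TMM in at least 4 mRNA libraries, so a scarce gene can enter through the group where it is higher. Total miRNA counts per library were 7045150 to 9184278 with cyclosporine A and 6664231 to 7888220 with vehicle. No 2 replicates agreed within counting noise (lowest chi-square per degree of freedom 1.27). The mRNA table has 28 features with a calendar date for a symbol, which stayed in the fit. Clusters were matched by the authors' gene symbol and overlaps of at least 1 base were found with bedtools 2.31.1; file starts were shifted to 1-based. The fit was tested on simulated data. Alternatives were RLE and upper-quartile factors, no filter, DESeq2 1.42.0, limma 3.58.1 voom, a replicate block and leaving out each library.

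Named were the members, up to 4 genes of each pathway list by p-value, the 3 nearest profiles of the members that rose and fell most, miRNAs of at least 1000 CPM with a seed site in a member's cluster, and a fixed list of miRNAs; cell type markers stand beside results they touch. One gene that the rule selects is not reported here, and counts over lists include it. The members and lists were chosen with earlier results of these data known.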

Additional observations from a re-analysis of the deposited data

Results flagged for a closer look

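A library far from the other 3 of its group was found in 5 of 114 groups of 4 libraries, and chance alone gives about 1 in 20. None concerned a member. CDKN1C had 36.1 CPM in vehicle replicate 4, where the other vehicle libraries had 30.7 to 31.5 CPM. TLE3 had 55.7 CPM in cyclosporine A replicate 4, where the others had 49.8 to 50.6 CPM, and 23.3 CPM in vehicle replicate 3, where the others had 28.2 to 29.2 CPM. The gap is small beside the difference between the groups for both genes. miR-146a-5p had 644 CPM in vehicle replicate 1, where the other vehicle libraries had 261 to 308 CPM. miR-199b-5p had 0.126 CPM, a single read, in cyclosporine A replicate 3 and 0 in the others.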

How the results depend on the processing

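Under 14 alternatives, 8 of the 9 tested members kept direction and call: HES1 3.63 to 3.82, HEY1 0.82 to 1.39, RBPJ 0.72 to 0.82, HES4 0.54 to 0.70, NOTCH1 0.40 to 0.51, NOTCH2 0.29 to 0.42, JAG2 0.20 to 0.33 and NOTCH3 −0.81 to −0.68 (log2). JAG1 (−0.35 to −0.20) lost its call as given above, so the members called lower were 1 in DESeq2 and 1 to 2 with a library left out. Upper-quartile factors shifted the median of all genes by −0.08 (log2). Same-numbered mRNA libraries did not deviate together (r −0.08 to 0.03). For miRNA, r was −0.06 to 0.34 for same numbers and −0.28 to 0.18 for different numbers. These values do not settle whether the miRNA libraries were paired. The replicate block left the members, HEY1 included, at 7 higher and 2 lower; it called 43 miRNAs higher and 49 lower against 23 and 30, and also miR-34a-5p (adjusted p = 0.0340) and miR-146a-5p (0.000274). With a library left out, 14 to 29 miRNAs were higher and 15 to 29 lower, the lowest of each without vehicle replicate 3. miR-146a-5p also passed with no filter (0.000416) and without vehicle replicate 2 (0.0496), but its change ran from −0.72 to −0.20 with a library left out, and that of miR-34a-5p from −0.55 to −0.06. miR-21-5p, not called, changed sign under upper-quartile factors (0.0295), no filter (0.000964), DESeq2 (0.00177) and left-out libraries (−0.0767 to 0.103), and miR-30a-5p under left-out libraries (−0.0882 to 0.0233); the cause was not tested. Clusters on members at or above the median score were 3 with cyclosporine A, 7 with vehicle and 3 in the all-Argonaute list, and 0 in each list in the 3′ UTR class. Seed sites of miRNAs over 10000 CPM lay in 0 clusters of both treatments, and sites of 8 bases or with a following A in 0 and 1.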
